A study of Homo sapiens with 7 samples.

Results

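The microRNAs of the miR-17, miR-18 and miR-19 seed families were examined in captures of the X1 isoform of BRAF, the mRNA of a kinase of the MAPK growth pathway. The members were taken by name from the table of mature microRNAs. Of the 10 names sought, 8 were found among 480 mature microRNAs: hsa-miR-17-5p, hsa-miR-20a-5p, hsa-miR-93-5p, hsa-miR-106a-5p and hsa-miR-106b-5p with the miR-17 seed, hsa-miR-18a-5p with the miR-18 seed, and hsa-miR-19a-3p and hsa-miR-19b-3p with the miR-19 seed. miR-18b-5p and miR-20b-5p were not analysed here.

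All 7 libraries came from A375, an established human melanoma cell line, harvested after 24 h of growth and fixed for 10 min with 1% formaldehyde before miR-CATCHv2.0, a pulldown in which probes retrieve a transcript together with the microRNAs attached to it. The ODD and EVEN probe sets both target the BRAF-X1 3' UTR and gave 3 captures each, and scrambled probes gave 1. The 6 ODD and EVEN libraries are called the X1-probe libraries here. The labels name no genetic change or drug for any group. A library of unselected A375 RNA was not analysed here, so each capture is set against the scrambled one.

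A microRNA finds its targets mainly through its seed, bases 2 to 8 from the 5' end, so members of a seed family can bind the same sites. The miR-17-92 cluster, an oncogenic polycistron switched on by MYC, encodes members of all 3 families together with miR-92a-3p. Its paralogs are the miR-106b-25 cluster, which lies within the replication helicase gene MCM7, and the miR-106a-363 cluster on the X chromosome. These microRNAs are known for driving the cell cycle, and miR-17 and miR-106b family members repress the cell cycle inhibitor CDKN1A.

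The mature sequences are shown because the families are defined by their seeds, in capitals, and because several members differ by few bases. They are RefSeq's, build GRCh38.p14, matched by name for 8 of 8 members.
miR-17-5p: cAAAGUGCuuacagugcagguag
miR-106a-5p: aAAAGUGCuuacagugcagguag
miR-20a-5p: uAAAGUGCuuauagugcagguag
miR-93-5p: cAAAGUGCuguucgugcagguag
miR-106b-5p: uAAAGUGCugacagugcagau
miR-18a-5p: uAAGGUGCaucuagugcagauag
miR-19a-3p: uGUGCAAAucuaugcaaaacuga
miR-19b-3p: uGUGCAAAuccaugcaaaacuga

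Substitutions are counted from the 5' end with miR-17-5p as the reference. miR-106a-5p differs from it by 1 base, C1A, and miR-20a-5p by 2, C1U and C12U. miR-106b-5p differs by 3 over the 21 positions that both have, C1U, U10G and G20A, and miR-93-5p by 4, U10G, A11U, C12U and A13C. miR-19a-3p and miR-19b-3p differ by 1, U11C. A read that lost its first base would not tell miR-17-5p from miR-106a-5p, and how the authors placed such reads is not given in the sources used here, so the split between these near-identical names is uncertain. No other mature name with a row carried any of the 3 seeds shown in capitals, among the 406 of 480 names that matched the reference.

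In GRCh38.p14, miR-17-5p lies at chr13:91350618-91350640 on the plus strand, with miR-18a-5p, miR-20a-5p, miR-19a-3p and 1 locus of miR-19b-3p also inside the host gene MIR17HG. miR-93-5p lies at chr7:100093815-100093837 on the minus strand inside MCM7, as does miR-106b-5p. miR-106a-5p and the other locus of miR-19b-3p lie in MIR106AHG on chromosome X. The build behind the deposited table is not given in the sources used here, and the table was joined to these loci by name alone.

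Values are RPM, reads scaled to a library total of 1000000. The depth was small, 4049 to 35508 reads per library counted over all rows, which include repeated hairpin rows of a name. With 1 row per name it was 3046 to 25679 reads. Shares and intervals here use the total over all rows. A read counted as 28.2 RPM in ODD replicate 2, the deepest, and as 215 RPM with scrambled probes. ODD replicate 3, EVEN replicate 3 and the scrambled library each held under 5000 reads. As a check of the cell label, 3 of 7 microRNAs fixed as melanoma and pigment cell markers had reads, with a summed level of 6672 to 9020 RPM for X1 probes and 5595 RPM for scrambled, while miR-211-5p, a defining one, had none. Markers of blood, epithelium, liver, neurons and muscle had reads for 5 of 7, 3 of 6, 0 of 1, 2 of 3 and 2 of 4 names. The summed level of none of these lists passed 741 RPM in an X1-probe library, and the neuronal list stood at 1291 RPM in the scrambled library. Their part in the results below was not tested.

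The 8 members together were a minor part of the captured microRNAs. They had 165 reads over the 7 libraries, of which miR-93-5p held 42.4%, miR-17-5p 30.3%, miR-19b-3p 12.1% and miR-20a-5p 7.88%. Summed, they reached 2118 ± 521 RPM over the X1-probe libraries (SD, n = 6), or 0.212% of the total. The scrambled sum was 646 RPM, from 3 reads. The exact 95% interval of the scrambled sum ran from 133 to 1885 RPM. ODD replicate 2 and EVEN replicate 3 lay inside it and the other 4 X1-probe libraries above.

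**Figure D1:**
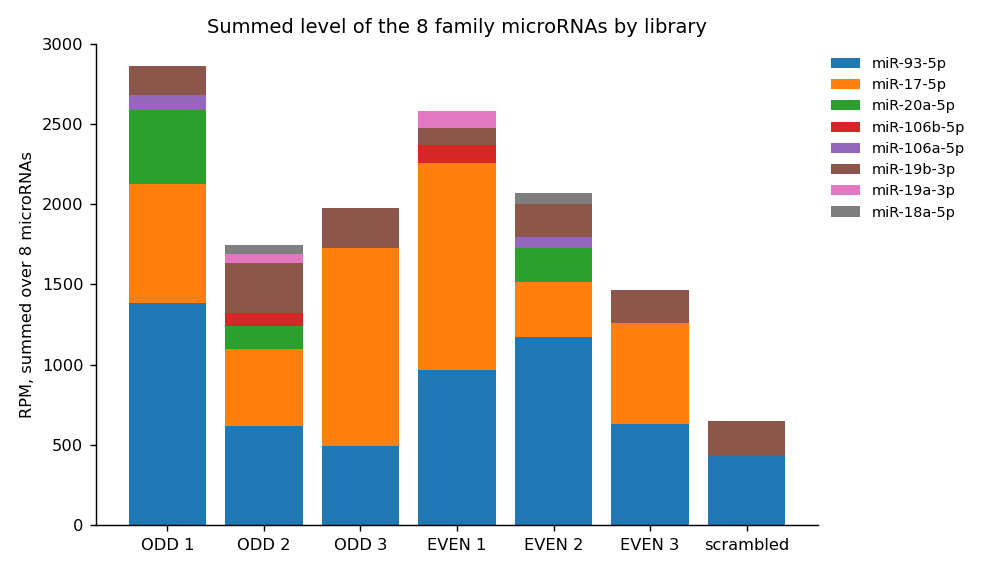
Stacked bars of the RPM of the 8 members in each library, with libraries on the horizontal axis and RPM on the vertical axis. The X1-probe bars stand between 1468 and 2865 RPM and the scrambled bar, made of miR-93-5p and miR-19b-3p alone, at 646 RPM.

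miR-93-5p and miR-17-5p were the highest members and the remaining 6 were far lower. Over the X1-probe libraries miR-93-5p averaged 878 ± 355 RPM, miR-17-5p 786 ± 393, miR-19b-3p 211 ± 67 and miR-20a-5p 135 ± 183 (SD, n = 6). miR-106b-5p, miR-19a-3p, miR-106a-5p and miR-18a-5p followed at 32.0, 27.3, 26.9 and 20.9 RPM, each with reads in 2 of the 6 libraries. The first 2 overlapped in range, as did miR-19b-3p with miR-20a-5p, whereas every X1-probe value of miR-17-5p lay above every value of miR-19b-3p. By mean level over the 7 libraries, miR-93-5p was 73rd and miR-17-5p 81st of 480 names. The mature sequences are 21 to 23 nt long, so RPM was compared between them with no correction for length.

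miR-17-5p, the name-giving member of its seed family, had reads in every X1-probe library and none with scrambled probes. Its level was 739, 479 and 1235 RPM in ODD replicates 1 to 3, from 8, 17 and 5 reads. It was 1291, 345 and 629 RPM in EVEN replicates 1 to 3, from 12, 5 and 3 reads. The scrambled library had 0 reads, where the floor of 3 reads is 646 RPM and the exact upper 95% limit of 0 reads is 793.5 RPM. The same pattern, reads in all 6 X1-probe libraries and 0 scrambled reads, was found for 11 of the 242 microRNAs tested, miR-17-5p included. All 6 of its libraries were above the scrambled value, 3 of them above its floor, and the ODD and EVEN values overlapped across nearly their whole range.

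miR-93-5p, which shares the miR-17 seed and comes from the MCM7 intron cluster, had reads in all 7 libraries. It was at 1386, 620 and 494 RPM in ODD replicates 1 to 3, from 15, 22 and 2 reads. EVEN replicates 1 to 3 had 969, 1173 and 629 RPM, from 9, 17 and 3 reads, and the scrambled library 430 RPM from 2 reads. The scrambled value was the lowest of the 7, and its exact 95% interval of 52.1 to 1554 RPM held all 6 X1-probe values.

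miR-20a-5p, known with miR-17-5p for repressing the cell cycle factor E2F1, was seen in the deeper libraries. It had 462 and 141 RPM in ODD replicates 1 and 2, from 5 reads each, and 207 RPM in EVEN replicate 2, from 3 reads. ODD replicate 3, EVEN replicates 1 and 3 and the scrambled library had none. miR-106a-5p had 1 read in each of ODD replicate 1 and EVEN replicate 2, and miR-106b-5p had 4 reads, 3 from ODD replicate 2 and 1 from EVEN replicate 1. None of these 3 had a read in any of the 3 libraries under 5000 reads. There, the floor of 3 reads is 741 RPM in ODD replicate 3, 629 RPM in EVEN replicate 3 and 646 RPM in the scrambled library. The exact upper 95% limits of 0 reads are 910.6, 773.5 and 793.5 RPM in the same order. A single read is 247, 210 and 215 RPM in these libraries, so levels like those of the deeper libraries could be missed there or give very few reads.

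miR-18a-5p, whose seed differs from that of miR-17-5p by 1 base, had 2 ODD replicate 2 reads and 1 EVEN replicate 2 read. The miR-19 family was led by miR-19b-3p, which had reads in all 7 libraries. Its level was 185, 310 and 247 RPM in ODD replicates 1 to 3, from 2, 11 and 1 reads. In EVEN replicates 1 to 3 it was 108, 207 and 210 RPM, from 1, 3 and 1 reads, and in the scrambled library 215 RPM, from 1 read. The scrambled value lay inside the X1-probe range, with 2 of 6 X1-probe libraries above it. miR-19a-3p had 3 reads in all, 2 from ODD replicate 2 and 1 from EVEN replicate 1.

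**Figure D2:**
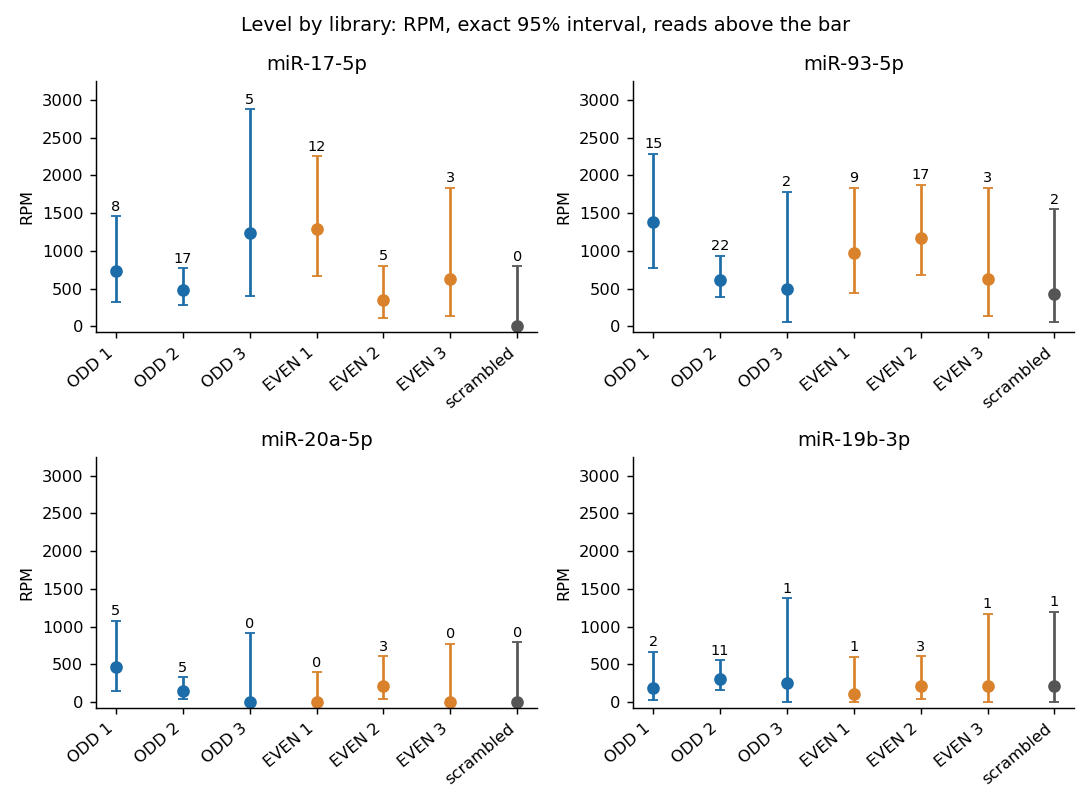
RPM of the 4 tested members in each library, with exact 95% intervals on reads and the number of reads above each interval; blue is ODD, orange EVEN and grey scrambled. miR-17-5p has 3 to 17 reads per X1-probe library against 0 scrambled reads, and the scrambled interval up to 793.5 RPM overlaps that of every X1-probe library.

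The main question of the design was which microRNAs bind BRAF-X1, addressed by X1 probes against scrambled probes. Of the 8 members, 4 passed the filter on low values, and 1 of these, miR-17-5p, was higher with X1 probes. Of all 242 microRNAs tested, 0.826% were called in either direction, which is 2 names, miR-17-5p included. The members were chosen with earlier results of these data known, so 1 of 4 cannot be weighed against that share. miR-17-5p and miR-20a-5p, at 0 with scrambled probes, could pass the filter only through the X1-probe libraries. For them any library with a read counts as higher. On the log2(RPM + 10) scale miR-17-5p differed by 6.16 (limma, SE 1.14, adjusted p = 0.000662, higher in 6 of 6 libraries). That size depends on the pseudocount, since the scrambled value is 0. Against the floor of 3 scrambled reads its mean was 1.22-fold, and against the exact upper 95% limit of 0 reads, 793.5 RPM, it was 0.991-fold, with 2 libraries above that limit.

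The call ended without EVEN replicate 2, the library with the lowest miR-17-5p level of the 6 (limma, log2 difference 6.39, adjusted p = 0.0604), under quantile scaling (adjusted p = 0.0514) and with a pseudocount of 250 (adjusted p = 0.200). The lone scrambled library has no spread of its own, so its error in the limma fit was taken from the ODD and EVEN captures.

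miR-93-5p had the same seed and a similar level but did not pass, with a log2 difference of 0.92 (limma, 95% interval -0.66 to 2.49, adjusted p = 0.673). The difference of miR-20a-5p was 2.32 (limma, -2.73 to 7.37, adjusted p = 0.673) and that of miR-19b-3p -0.090 (limma, -3.34 to 3.16, adjusted p = 0.976). The sign of miR-19b-3p turned without ODD replicate 1 and without EVEN replicate 1. These intervals are wide, and those of miR-20a-5p and miR-19b-3p reach past a 4-fold difference in each direction.

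The number of reads expected in the scrambled library shows how much of this the depth could resolve. At the pooled share of the X1-probe libraries, miR-17-5p would have had 2.94 scrambled reads and at their mean RPM 3.65, and the exact 95% interval of the 0 reads observed ends at 3.69. miR-93-5p would have had 4.0 reads, and 2 were seen. miR-19b-3p would have had 1.12, and 1 was seen. For each of the 8 members the expected number, by either reckoning, lay inside the exact 95% interval of the reads observed, which covers counting error only. Summed over the 8, the pooled share gave 9.54 expected reads against 3 seen, above the interval of the sum. Without miR-17-5p it gave 6.59 against the same 3, inside the interval.

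**Figure D3:**
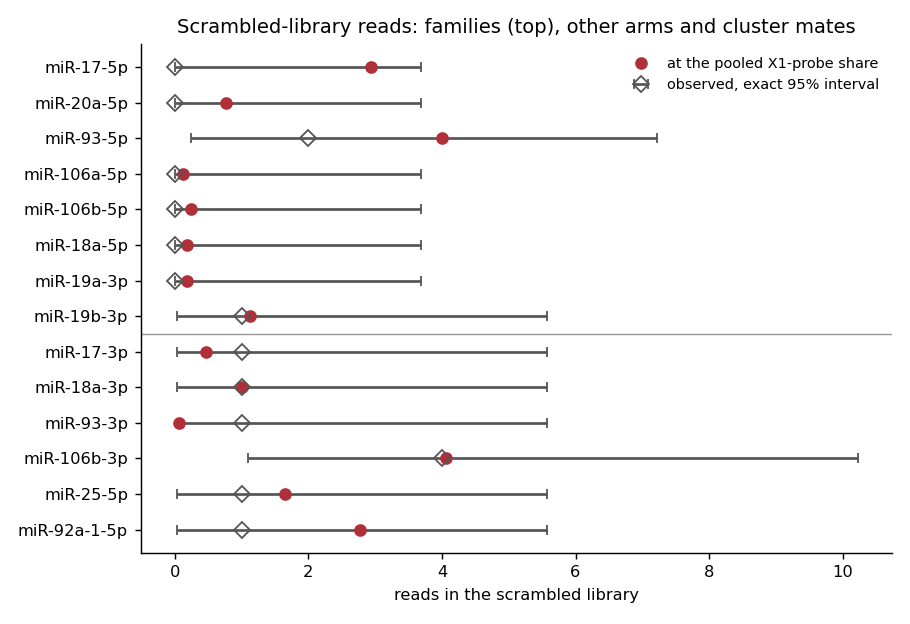
Reads seen in the scrambled library (diamonds, exact 95% interval) and reads expected at the pooled share of the X1-probe libraries (red dots), with reads on the horizontal axis. The 8 members are above the line and 6 other arms and cluster mates below it, with miR-92a-3p and miR-25-3p left out. miR-17-5p has 0 reads against 2.94 expected, and its interval ends at 3.69.

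Summed by seed, the miR-17 family averaged 1859 ± 566 RPM over the X1-probe libraries (SD, n = 6), from 137 reads. It had 430 RPM in the scrambled library, from 2 reads. Its sum without miR-17-5p was 1072 ± 544 RPM (SD, n = 6) against the same 430 RPM, whose exact 95% interval is 52.1 to 1554. The miR-19 family was at 238 ± 66 RPM (SD, n = 6) against 215 RPM. For the whole miR-17 family 4 X1-probe libraries lay above that interval, ODD replicates 1 and 3 and EVEN replicates 1 and 2.

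The sample descriptions also hold a number with no stated meaning, which is 9 or 10 for the first 2 replicates and 12 for ODD replicate 3, EVEN replicate 3 and the scrambled library. Among the 3 libraries with the number 12, which also have similar depths, miR-17-5p had 5 reads with ODD, 3 with EVEN and 0 with scrambled probes, and miR-93-5p 2, 3 and 2 reads. With the number as a block the miR-17-5p difference was 6.48 and the call ended (limma, adjusted p = 0.111), as it did for ODD and EVEN probes (adjusted p = 0.132 and 0.154).

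Each probe set was also compared with the same scrambled library. miR-17-5p was the member that passed with each set, with a log2 difference of 6.27 for ODD (limma, SE 1.21, adjusted p = 0.00144, higher in 3 of 3 libraries) and 6.06 for EVEN (limma, SE 1.21, adjusted p = 0.00238, higher in 3 of 3). In each comparison 0.826% of the tested microRNAs were called, 2 of 242, with miR-17-5p among them. Both comparisons rest on the same 0 scrambled reads, so they are not independent of each other. With 0 reads there, any library with a read counts as higher, and miR-17-5p could pass the filter only through the X1-probe libraries. The ODD call ended without EVEN replicate 2 (limma, adjusted p = 0.0925), which enters this comparison through the shared estimate of the spread. The EVEN call ended without EVEN replicate 1 and without EVEN replicate 2 (limma, adjusted p = 0.0503 and 0.105), and both ended without the eBayes trend (adjusted p = 0.0674 and 0.0522), under quantile scaling and with a pseudocount of 250. miR-93-5p differed by 0.79 for ODD and 1.04 for EVEN, with limma adjusted p of 0.729 and 0.667.

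ODD and EVEN probes address the same transcript, and no difference between them was detected for the 4 members tested. Of these 4, 0 passed by limma, with adjusted p of 0.979 to 0.981, against 0.413% of all tested microRNAs called. At an unadjusted p under 0.05 the counts were 0 of 4 members and 11 of 242 microRNAs, too few members to set apart from that background. miR-17-5p had 818 ± 384 RPM with ODD and 755 ± 486 with EVEN probes (SD, n = 3 each), a log2 difference of 0.21 (limma, 95% interval -1.54 to 1.96). miR-93-5p had 833 ± 483 and 924 ± 275 RPM (SD, n = 3 each), a log2 difference of -0.25 (limma, -1.44 to 0.94). The sign of both turned without ODD replicate 3, and that of miR-17-5p without EVEN replicate 2.

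miR-20a-5p had 201 ± 237 RPM with ODD and 69 ± 120 with EVEN probes, and miR-19b-3p 247 ± 62 and 175 ± 58 RPM (SD, n = 3 each). An exact two-sided permutation test of the mean RPM gave p = 0.8 for miR-17-5p and miR-93-5p, 0.7 for miR-20a-5p and 0.3 for miR-19b-3p, each 0.8 after Benjamini-Hochberg adjustment over these 4, where 3 against 3 cannot go below 0.1. The ODD and EVEN libraries overlapped for each of the 4 tested members. They did not overlap for 7.02% of the tested microRNAs, a background that 0 of 4 cannot be told from. These intervals still hold a 2-fold difference in at least 1 direction for each of the 4.

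**Figure D4:**
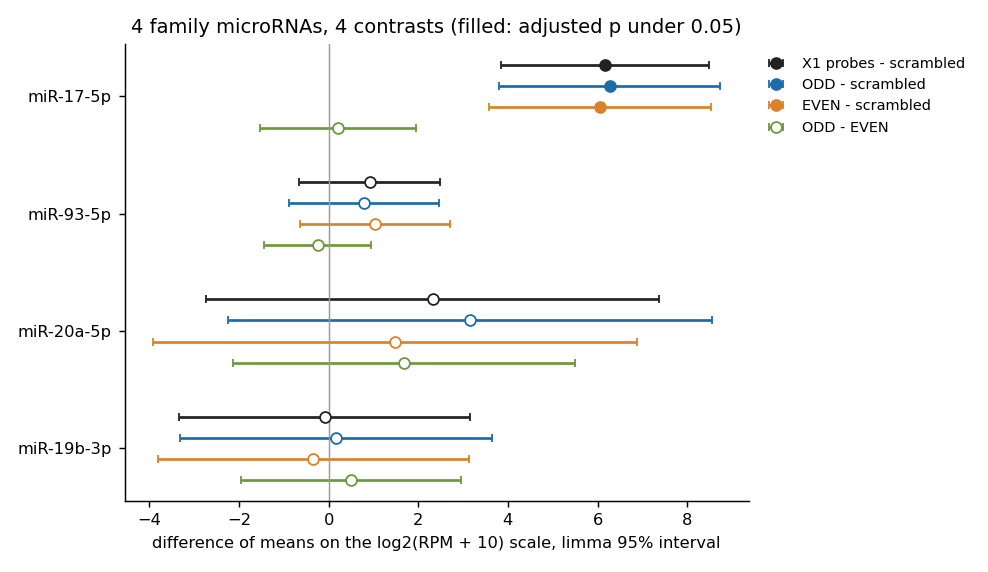
Differences on the log2(RPM + 10) scale with limma 95% intervals for the 4 tested members in 4 contrasts, with the difference on the horizontal axis; filled points passed at an adjusted p under 0.05. The 3 filled points are those of miR-17-5p against scrambled probes, at 6.06 to 6.27, and all other intervals cross 0.

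A hairpin gives 2 mature arms, of which usually one is loaded and the other discarded, and the arms listed from the member hairpins did not follow the members' levels. miR-106b-3p, the partner of miR-106b-5p, was the most abundant arm of its hairpin in 7 of 7 libraries. It is shown with miR-18a-3p, the other partner arm above its member, with bases 2 to 8 in capitals.
miR-106b-3p: cCGCACUGuggguacuugcugc
miR-18a-3p: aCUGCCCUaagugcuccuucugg

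miR-106b-3p had 647, 760 and 1235 RPM in ODD replicates 1 to 3, 861, 1173 and 1049 RPM in EVEN replicates 1 to 3, and 861 RPM in the scrambled library. Its X1-probe mean, 954 ± 235 RPM (SD, n = 6), was 29.8-fold that of miR-106b-5p, from 69 against 4 reads, and above that of every member. The scrambled value lay inside the X1-probe range. miR-18a-3p had 17 X1-probe reads against 3 of miR-18a-5p, was above it in 4 of 7 libraries and equal to it in 3. In the other direction, miR-17-5p was above miR-17-3p in 6 of 7 libraries, with 50 against 8 X1-probe reads, and below it in the scrambled library, with 0 against 1. miR-93-5p was above miR-93-3p in 7 of 7, with 68 against 1 X1-probe reads.

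**Figure D5:**
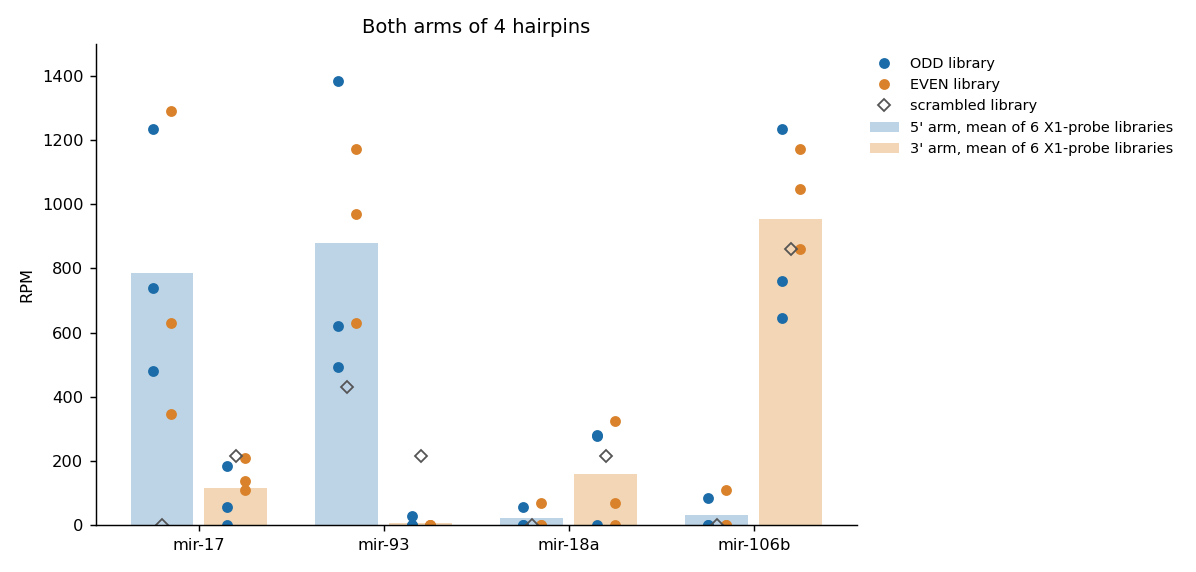
RPM of the 5' and 3' arms of 4 hairpins; bars are means of the 6 X1-probe libraries, circles the single X1-probe libraries and diamonds the scrambled library. The 5' arm is higher for mir-17 and mir-93, and the 3' arm for mir-18a and mir-106b, where miR-106b-3p reaches 954 RPM.

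The list of pathway names held 11 other arms of the hairpins, of which 4 had a row and 3 were tested, and 7 cluster mates with the miR-25 and miR-92 hairpins, of which 4 had a row and 4 were tested. None of these 7 tested names passed in any of the 4 comparisons, with limma adjusted p of 0.673 to 0.967 for X1 probes against scrambled. In that comparison 0 of the 7 had an unadjusted p under 0.05, beside 21 of all 242 tested, which does not set them apart. Their median log2 difference was 0.049, beside 0.096 over all 242 tested. miR-92a-3p has a locus in MIR17HG, as miR-17-5p does, and another with the same mature sequence in MIR106AHG on chromosome X. It averaged 147916 ± 10203 RPM over the X1-probe libraries (SD, n = 6). That is 188 times the mean of miR-17-5p, a ratio that ran from 112 to 411 over the 6 libraries. Its reads cannot be assigned to one locus, so the ratio is not one within a single primary transcript. miR-25-3p had 5203 ± 1388 RPM (SD, n = 6), 5.92 times the mean of miR-93-5p from the same MCM7 intron cluster. This ratio ran from 3.33 to 14.0 over the 6 libraries. In the scrambled library it was 8.50, inside that range, from 17 against 2 reads. The 13 names fixed from other loci with the same or a shifted seed, such as miR-302a-3p, were not analysed here.

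Base composition and the first base also varied among members. The GC content of the 8 members ran from 34.8% in miR-19a-3p to 52.2% in miR-93-5p, with a median of 43.2%, beside 50% over the 200 tested names matched to the reference. The 2 highest members, miR-93-5p and miR-17-5p, begin with C, while miR-106a-5p begins with A and the other 5 with U.

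The microRNAs nearest in level to the 4 tested members had scrambled reads in most cases. Directly above miR-17-5p by mean level over the 7 libraries stood miR-4792 and miR-4454, with 2 scrambled reads each. Directly below were miR-199a-3p and miR-199b-3p, with 4 each. That mean includes the scrambled library, so neighbours were not matched on X1-probe level. Their X1-probe means were 775, 774, 620 and 620 RPM, beside 786 for miR-17-5p. The miR-199 names also had the same mean level, 654 RPM, and the same 49 X1-probe reads, so they cannot be taken as independent neighbours. Around miR-93-5p stood miR-4508, miR-1273g-3p, miR-4492 and miR-574-5p, with 3, 3, 6 and 2. Around miR-19b-3p and miR-20a-5p, at lower levels, the neighbours had 0 to 3.

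The profiles most like that of miR-17-5p over the 7 libraries were those of miR-1273h-5p, miR-184 and miR-181c-5p, with Pearson r of 0.963, 0.957 and 0.939 on log2(RPM + 10). All 3 share its 0 reads in the scrambled library, and miR-1273h-5p had 18 reads in all. For miR-93-5p they were miR-138-5p, miR-105-5p and miR-15b-5p, with r of 0.915, 0.837 and 0.797 and 10, 5 and 10 reads in all. These values describe 7 libraries of unequal depth and are given without a test.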

How the data were processed

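MicroRNA reads of 3 ODD, 3 EVEN and 1 scrambled capture were analysed, with groups taken from sample titles and descriptions. The authors deposited 1 table of RPM values with 498 rows, written with a decimal comma. CASAVA 1.8 and cutadapt 1.2.1 are named, per the submitters' processing notes. For the aligner, counting rule, annotation and build: not given in the sources used here. RPM follows from the values, which sum to 1000000 per library. All values (100%) were whole multiples of 1 read within 1e-06 reads, which gave the reads and depths.

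The highest hairpin row stood for each of 480 mature names, and RPM totals include repeated hairpin rows. Alternatives changed the pseudocount, filter, scaling, hairpin rule, trend, block and replicates. Values were taken as log2(RPM + 10) and tested in R 4.3.3 by limma 3.58.1 with 1 mean per group, a trended eBayes, two-sided, Benjamini-Hochberg at 0.05 over the 242 names with at least 10 RPM in at least 3 of 7 libraries. Intervals on reads are exact Clopper-Pearson 95% intervals and floors are 3 reads per library; both cover counting error only. The fit was tested on simulated data for ODD against EVEN only, not for the comparisons with the lone scrambled library. The series' text calls the captures independent but names no separate cultures, so p-values measure the spread between these captures. Every member was named, with, for the tested ones, the 2 names above and below in level and, for those of at least 30 reads, the 3 names of highest r. The members and lists were chosen with earlier results of these data known.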

Additional observations from a re-analysis of the deposited data

Results flagged for a closer look

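In 1 of 16 names examined over the 6 X1-probe libraries a library stood apart from the other 5. miR-93-3p was at 28.2 RPM in ODD replicate 2 and at 0 in the other X1-probe libraries. The value is 1 read in the deepest library. The rule flags any name with reads in only 1 of the 6 libraries, whatever its level. Its usual rate of about 1 in 20 groups is for normally distributed values and does not hold for such sparse reads. In the scrambled library it also had 1 read.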

How the results depend on the processing

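Over 16 other settings, the direction of miR-17-5p against scrambled probes stayed positive, with log2 differences of 1.96 to 9.46 for X1 probes and adjusted p of 0.00074 to 0.200 by limma, called in 12. The count of members called fell from 1 to 0 for X1 probes, ODD and EVEN alike with a pseudocount of 250, under quantile scaling and with the replicate block, and for ODD and EVEN also without the eBayes trend. Leaving out 1 replicate gave counts from 0 to 1 in these 3 comparisons. With the description number as the replicate block, the log2 difference of miR-17-5p was 6.48 (limma, adjusted p = 0.111). Same-numbered ODD and EVEN libraries deviated together with r of -0.044, 0.073 and 0.019 only. At this depth counting error can bring such r near 0, so they cannot decide whether the libraries were pairs. The samples share a number and were not treated as pairs in the main fit. The sign turned in 8 of 256 member differences. With the block these were miR-19b-3p for X1 probes (0.078) and miR-20a-5p for EVEN against scrambled (-0.84). Leaving out 1 replicate gave -0.18 to 0.059 for miR-19b-3p with X1 probes, -0.0093 to 0.35 for it with ODD probes, and, for ODD against EVEN, -0.25 to 0.69 for miR-17-5p and -0.68 to 0.052 for miR-93-5p. The cause was not tested. No other arm or cluster mate was called in any setting. The planned TMM scaling and count test were not run. Depth limits every comparison with the scrambled library, where 1 read is 215 RPM.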
